A study of Mus musculus with 20 samples.

Results

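The comparison described here sets 4 grafts of seminal vesicle epithelium carrying the construct labelled mNKX3.1 against 4 grafts of prostate epithelium (PE), 8 of the 20 libraries in the series, across the 13456 genes of 23284 that had a value of at least 5 in at least 4 libraries. It asks how nearly complete the likeness of the mNKX3.1 grafts to prostate grafts was, and what difference remained. The mNKX3.1 grafts joined engineered mouse seminal vesicle cells to rat urogenital sinus mesenchyme, and the PE grafts joined mouse prostate cells labelled as wild type for NKX3.1 to the same rat tissue. Unmodified seminal vesicle grafts (SVE, 4 libraries), also labelled as wild type for NKX3.1, and seminal vesicle grafts with the hairpin labelled UTY_sh (4 libraries) serve as points of comparison. Every graft contained mouse cells from donors aged 2 months and Sprague Dawley rat mesenchyme, and was collected 3 months after implantation, with doxycycline in the drinking water for 3 months to switch on the inducible pTRIPZ vector. The labels give the mouse background as a hybrid of 129/SvImJ and C57Bl/6J and the growth protocol names C57Bl/6J donors. They do not say whether the m of mNKX3.1 stands for mouse or mutant, whether the PE cells carried a vector, or how many animals stood behind the 4 libraries of each group. The tests therefore measure the spread between libraries, which may be technical.

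Seminal vesicle and prostate are neighbouring male accessory glands of different embryonic origin, the first growing from the Wolffian duct and the second from the urogenital sinus. Urogenital sinus mesenchyme induces prostate in suitable epithelium, and NKX3.1 is an early homeodomain regulator of prostate epithelium. Each gland is known by its secretions: the seminal vesicle by the Svs proteins, which form the copulatory plug, and the mouse prostate by lobe-specific products such as probasin (Pbsn), transglutaminase 4 (Tgm4) and spermine-binding protein (Sbp).

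All values below are the deposited log2 values, and folds of low genes are understated because values flatten towards a floor of 2.25. The libraries held an estimated 15290000 to 21610000 reads in mNKX3.1, 14750000 to 20590000 in PE and 20110000 to 24850000 in SVE. The 50 most abundant genes took 37.1% of the reads on average in mNKX3.1 and 37.1% in PE, against 64.2% in SVE. Luminal keratins and other epithelial markers were present in both groups: Krt8, a keratin of luminal cells, lay between 11.41 and 11.62 in mNKX3.1 and between 11.41 and 11.64 in PE. Since rat reads can align to the mouse genome, stromal values may hold rat as well as mouse RNA, and in these bulk samples a change in the number of cells of a type cannot be told apart from a change in RNA per cell.

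The libraries of the mNKX3.1 and PE groups were not separate in the way those of PE and SVE were, and neither were those of UTY_sh and SVE. Each mNKX3.1 library could be written as a weighted sum of PE libraries, fitted by non-negative least squares on the linear scale over genes with values of 11 or more and checked on 453 to 455 genes left out of the fit. Library mNKX3.1 1 was fitted by 42.0% of PE 1, 51.4% of PE 3 and 5.86% of PE 4. The weights for mNKX3.1 2 were 34.8% of PE 2, 52.3% of PE 3 and 12.4% of PE 4, and those for mNKX3.1 4 were 52.8% of PE 2, 41.4% of PE 3 and 5.37% of PE 4. Only mNKX3.1 3 took nothing from PE 3, with 43.0% of PE 1, 24.8% of PE 2 and 32.0% of PE 4.

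In the genes outside the fit, the median squared residual was 0.779 to 1.11 times the counting variance in the 4 mNKX3.1 libraries, where counting error alone gives 0.455. The mean was 6.87 to 14.2 times the counting variance, so some genes lay far outside counting error. The median ratio was 1.05 to 8.12 for mNKX3.1 libraries fitted from the other mNKX3.1 libraries, 2.31 to 13.2 for PE libraries fitted from mNKX3.1 libraries, 1.76 to 7.39 for UTY_sh libraries fitted from SVE libraries, and 3.50 to 59.3 for PE libraries fitted from the other PE libraries. By this median the mNKX3.1 libraries lay closer to sums of PE libraries than the PE libraries lay to sums of each other or of mNKX3.1 libraries. The labels describe no pooling of cells, RNA or libraries, and the origin of this relation was not tested. The closest pairs, mNKX3.1 2 with mNKX3.1 4 and mNKX3.1 3 with PE 4, had median chi-square values of 1.43 and 2.79 per gene, also above counting error, so each library was counted once. The p-values below assume independent libraries. A sum of PE libraries lies near the PE level by construction, so the intervals, distances, spreads and shares below describe these libraries and are not separate support for a likeness of the grafts.

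**Figure D1:**
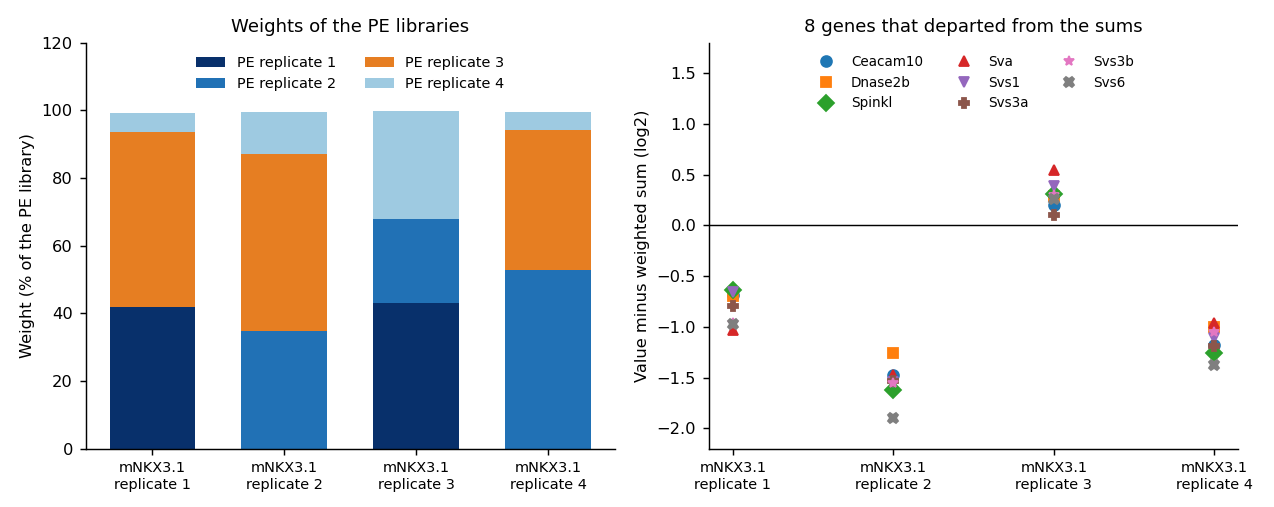
Left, the weight of each PE library (%, stacked bars) in the non-negative sum fitted to each mNKX3.1 library: PE 3 contributes 51.4%, 52.3%, 0% and 41.4% to mNKX3.1 replicates 1 to 4. Right, the deposited value minus the weighted sum (log2) for the 8 genes that lay more than 0.5 from their sum in at least 3 mNKX3.1 libraries: all 8 are below it in replicates 1, 2 and 4 and above it in replicate 3.

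No gene passed the test between mNKX3.1 and PE grafts. With limma across all 20 libraries and Benjamini-Hochberg adjustment, 0 of 13456 genes (0%) had an adjusted p below 0.05, and the smallest adjusted p was 0.9999. At an unadjusted p below 0.05 there were 65 genes (0.483%), of which 29 (0.216%) were higher and 36 (0.268%) lower in mNKX3.1. By the same test 8385 genes (62.3%) differed between mNKX3.1 and SVE, with 4263 (31.7%) higher and 4122 (30.6%) lower, and 8362 (62.1%) between PE and SVE, with 4275 (31.8%) higher and 4087 (30.4%) lower. These comparisons share libraries. The count of 0 depended on treating the libraries as equally reliable: with limma's library weights, which gave PE 4 a weight of 4.741 and PE 3 one of 0.2571, 850 genes (6.32%) were called, 529 (3.93%) higher and 321 (2.39%) lower, and of these 523 and 300 went with the side on which PE 3 lay. Leaving out PE 3 gave 0 calls and 788 genes (5.86%) at an unadjusted p below 0.05. That unadjusted count was 222 without mNKX3.1 3, 116 without PE 2, 43 without mNKX3.1 2 and 39 without mNKX3.1 4. Between UTY_sh and SVE, another pair of groups with 0 genes called, 316 genes (2.35%) had an unadjusted p below 0.05.

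A missed threshold does not show likeness, and the intervals of the differences give the sizes that remain possible. The 95% interval lay within 1 log2 of 0 in 12801 genes (95.1%), and within 0.5 in 10695 genes (79.5%). The median difference, mNKX3.1 minus PE, was -0.01, and 95% of genes lay between -0.20 and 0.30. For the other 655 genes the data allow a difference of more than 2-fold. Most of these, 521 genes (79.5%), had an SD above 1 within PE or within SVE, whose spread enters the shared error. The libraries of mNKX3.1 and PE did not overlap in 86 genes (0.639%), with mNKX3.1 higher in 33 (0.245%) and lower in 53 (0.394%). Leaving out a library can only keep or raise these counts, and fewer libraries also separate more often by chance. A rise therefore does not show that the counts rested on that library. Without PE 3 the counts were largest, with mNKX3.1 higher in 326 genes (2.42%) and lower in 402 (2.99%). With any of the other 7 libraries left out, mNKX3.1 was higher in 65 to 103 genes and lower in 107 to 213.

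**Figure D2:**
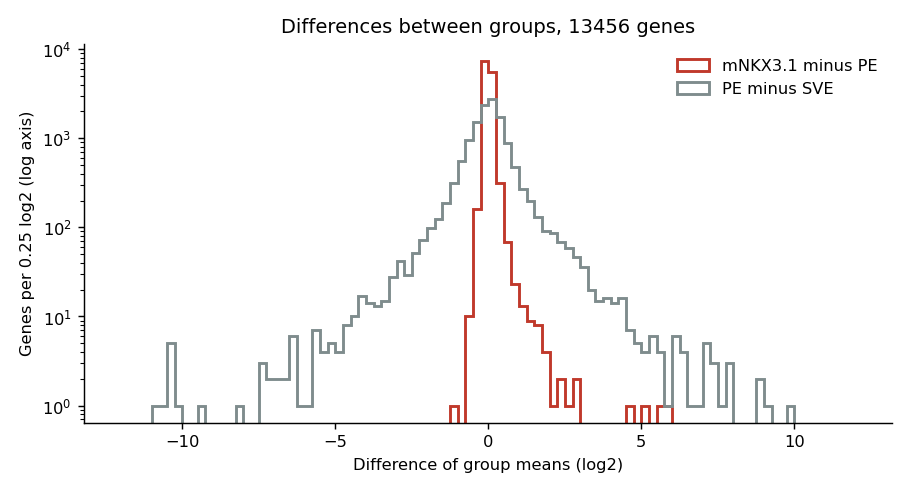
Number of genes (log axis) by the difference of group means (log2, in steps of 0.25) for mNKX3.1 minus PE and for PE minus SVE, over 13456 genes. The first lies between -1.01 and 5.80 and is narrow around 0, with a tail on the positive side; the second is far wider on both sides.

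The distance between whole libraries, as the root-mean-square log2 difference over all genes tested, also overlapped between the 2 groups. It averaged 0.365 within mNKX3.1, 0.427 between mNKX3.1 and PE, and 0.526 within PE, against 1.15 between mNKX3.1 and SVE and 1.14 between PE and SVE. The between-group distance minus the within-group distance was -0.0186 for mNKX3.1 and PE (exact permutation test, two-sided, p = 0.686). It was 0.648 for PE and SVE (p = 0.0286, exact, the smallest that 4 against 4 allows). For UTY_sh and SVE, another pair that did not separate, it was -0.0199 (exact permutation test, two-sided, p = 0.371). Nearest neighbours crossed the groups in part: mNKX3.1 3 and PE 4 were each other's nearest library at 0.188, and mNKX3.1 1 and PE 3 at 0.305. PE 1 was nearest to mNKX3.1 3 at 0.358. Within the groups, mNKX3.1 2 and mNKX3.1 4 were each other's nearest at 0.165, the closest pair of all, and PE 2 was nearest to PE 4 at 0.259. Spread was smaller in mNKX3.1, with a median SD per gene of 0.109 in mNKX3.1 and 0.149 in PE, and a smaller SD in mNKX3.1 for 10140 genes (75.4%). The mean distance within mNKX3.1 minus that within PE was -0.161 (exact permutation test, two-sided, p = 0.0857), and it was -0.0400 without PE 3.

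**Figure D3:**
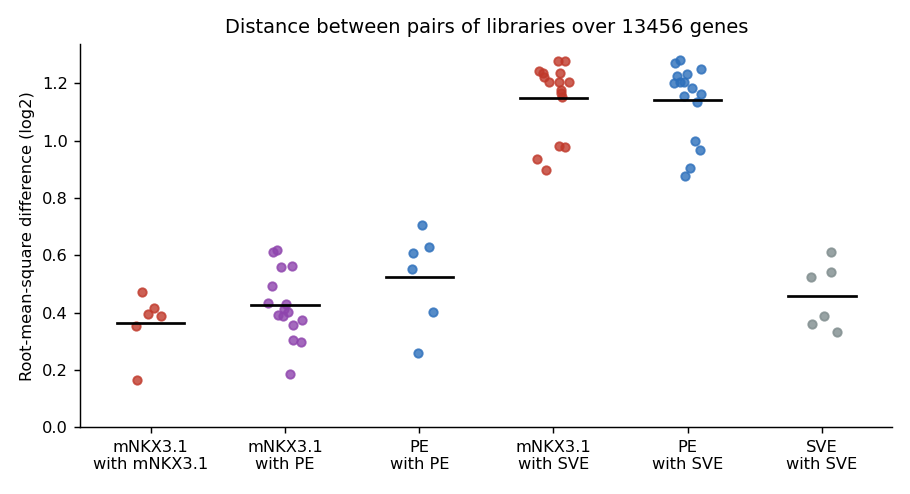
Root-mean-square difference (log2) of each pair of libraries, with the mean of each kind of pair as a bar. Pairs of mNKX3.1 with PE libraries (0.188 to 0.620) lie among the pairs within these 2 groups (0.165 to 0.707). Pairs of mNKX3.1 or PE with SVE lie at 0.876 or above, and pairs within SVE at 0.332 to 0.612.

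For most genes that set prostate apart from seminal vesicle, the mNKX3.1 grafts lay at the prostate level. Among 324 genes called between PE and SVE with a difference of at least 3 log2, the difference of mNKX3.1 from SVE was a median of 100.4% of that of PE from SVE, with 5th and 95th percentiles of 93.2% and 114%. Each mNKX3.1 library alone gave 100.3%, 100.6%, 99.8% and 100.5%. A PE library set against the mean of the other PE libraries gave 98.6% to 101.4%, so the mNKX3.1 libraries lay within the range of prostate libraries. The lowest share was that of Spink3 at 28.6% and the highest that of Sbpl at 193.9%, and both genes belong to the variable group described below. The next lowest shares, looked up after the values were seen, were those of Trpv6 and Ank. Trpv6, an epithelial calcium channel, covered 53.0%, and Ank, a pyrophosphate transporter, 55.0%. Both are among the 60 genes, described below, that PE 3 held far above the other PE libraries.

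Prostate secretory genes had a median near prostate level, but many single members were loosely bounded. Of 18 measured members of the list, 0 passed the test, 3 had an unadjusted p below 0.05 and 12 had a positive difference, where 44.2% of all genes tested did. The median difference was 0.17. Tgm4 averaged 19.36 ± 0.15 in mNKX3.1 and 19.40 ± 0.29 in PE, against 11.83 ± 4.24 in SVE (SD, n = 4 each). Pbsn averaged 17.77 ± 0.13 in mNKX3.1 and 17.79 ± 0.29 in PE, against 9.92 ± 4.39 in SVE. Msmb, which encodes beta-microseminoprotein, had 14.86, 15.02, 14.25 and 14.85 in mNKX3.1 and 14.07, 14.38, 15.35 and 14.31 in PE, against a mean of 4.64 ± 1.64 in SVE. For all 3 the mNKX3.1 and PE libraries overlapped. The difference was 0.22 for Msmb (SE 0.76). Those of Tgm4 and Pbsn had SEs of 1.93 and 1.96, which come from the wide spread among seminal vesicle libraries in the shared fit and leave intervals of about 4 log2 on each side, although the mNKX3.1 and PE libraries themselves spanned less than 1.

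The regulators of the 2 glands were near their prostate level. Among 15 measured prostate and urogenital sinus regulators 0 passed the test and 5 had a positive difference, with a median of -0.04, and among 9 Wolffian duct regulators 0 passed and 2 were positive, with the same median of -0.04. Pax2, a paired-box regulator of Wolffian duct and kidney development, had 3.82, 4.09, 4.71 and 4.11 in mNKX3.1 and 4.98, 4.52, 3.01 and 4.61 in PE, against 9.36 to 9.59 in SVE. Its difference was -0.09 (SE 0.28, limma adjusted p = 0.9999), and the groups overlapped. Gata2, a zinc-finger factor, averaged 12.34 ± 0.23 in mNKX3.1 and 12.43 ± 0.23 in PE, against 14.17 ± 0.21 in SVE. Ehf, an epithelial ETS factor, averaged 14.27 ± 0.09 in mNKX3.1 and 14.31 ± 0.17 in PE, against 13.09 ± 0.23 in SVE. Uty, the Y-linked homologue of the H3K27 demethylase Kdm6a and the gene the UTY_sh hairpin is labelled for, had 10.31, 10.29, 10.07 and 10.27 in mNKX3.1 and 10.18, 10.13, 10.45 and 10.19 in PE, against 9.04 to 9.55 in SVE. The libraries of mNKX3.1 and PE overlapped, and all 8 lay above every SVE library. This was not particular to Uty. Of the 4 measured genes in the list of Y chromosome and X inactivation genes, Uty among them, 3 were higher than in SVE by the test in PE. The count was also 3 in mNKX3.1, and the median differences from SVE were 0.47 in PE and 0.48 in mNKX3.1.

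The largest differences sat in 1 set of genes that varied from library to library within both groups. Of the 44 genes (0.327% of those tested) at least 1 log2 higher in mNKX3.1, 42 were high in PE 3 alone among the PE libraries, and the other 2 in PE 2 and PE 4. Over all 114 genes high in PE 3 alone, the median level was 8.02, 7.93, 5.65 and 7.69 in mNKX3.1 replicates 1 to 4. The 2 genes high in PE 2 and PE 4 were instead low in mNKX3.1 1. Only 1 gene (0.00743%) was at least 1 log2 lower, H19. The count of 44 was 104 without PE 3, 83 without mNKX3.1 3, 80 without PE 2, 76 without mNKX3.1 1 and 28 without PE 1.

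Sbp, which encodes a spermine-binding protein of the prostate, had 18.48, 18.53, 8.46 and 18.22 in mNKX3.1 and 5.63, 7.35, 19.38 and 8.14 in PE, against 1.84 to 3.45 in SVE. Of the mNKX3.1 libraries 3 were high, and of the PE libraries 1, so the groups overlapped. The difference was 5.80 (SE 2.43, limma adjusted p = 0.9999), with a 95% interval of 0.69 to 10.91. That interval uses the spread of all 5 groups: fitted on the mNKX3.1 and PE libraries alone, the SE was 3.36 and the unadjusted limma p was 0.121, against 0.0282 in the fit of all libraries. In that smaller fit the unadjusted limma p of Sbpl was 0.115, of Spink3 0.139 and of Spink5 0.155. Sbpl, its paralogue, had 16.47, 16.46, 6.84 and 16.25 in mNKX3.1 and 4.05, 5.65, 17.36 and 6.01 in PE, in the same libraries, and how reads were divided between these similar genes is uncertain. The difference was 5.74 (SE 2.35).

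Spink3, a Kazal-type trypsin inhibitor of seminal fluid, had 16.15, 16.23, 6.52 and 15.91 in mNKX3.1 and 5.41, 4.92, 17.14 and 6.72 in PE, against 15.15 to 16.17 in SVE. It is a listed seminal vesicle product that stood at 105.9% to 132.5% of the SVE mean in the high mNKX3.1 libraries and at 248.8% in PE 3 on the linear scale, whereas the other measured products of that list were lower than in SVE by the test. Spink5, another Kazal-type inhibitor, had 13.35, 13.30, 4.29 and 12.99 in mNKX3.1 and 4.14, 3.29, 14.28 and 4.18 in PE, against 3.18 to 4.15 in SVE. Tac1, the precursor of substance P, had 9.32, 9.23, 2.91 and 8.88 in mNKX3.1 and 2.47, 2.58, 10.24 and 3.09 in PE, with the low libraries close to the floor. Nupr1, a small stress-induced nuclear protein, had 11.74, 11.77, 6.20 and 11.43 in mNKX3.1 and 6.15, 6.48, 12.64 and 6.11 in PE, against 6.23 to 6.54 in SVE.

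In all of these genes PE 3 was the highest of the 8 libraries. Over the 60 genes that PE 3 held at 8 or more and at least 2 log2 above every other PE library, the medians of mNKX3.1 minus PE 3 were -0.84, -0.90, -3.60 and -1.11 for replicates 1 to 4. The weights of PE 3 in the sums were 51.4%, 52.3%, 0% and 41.4% in the same order. For Sbp the weighted sums were 18.42, 18.45, 7.25 and 18.11, so that replicates 1, 2 and 4 lay within 0.11 of them and replicate 3 lay 1.21 above. No gene was held by 1 mNKX3.1 library alone by the same rule, and none by PE 1, PE 2 or PE 4 alone.

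**Figure D4:**
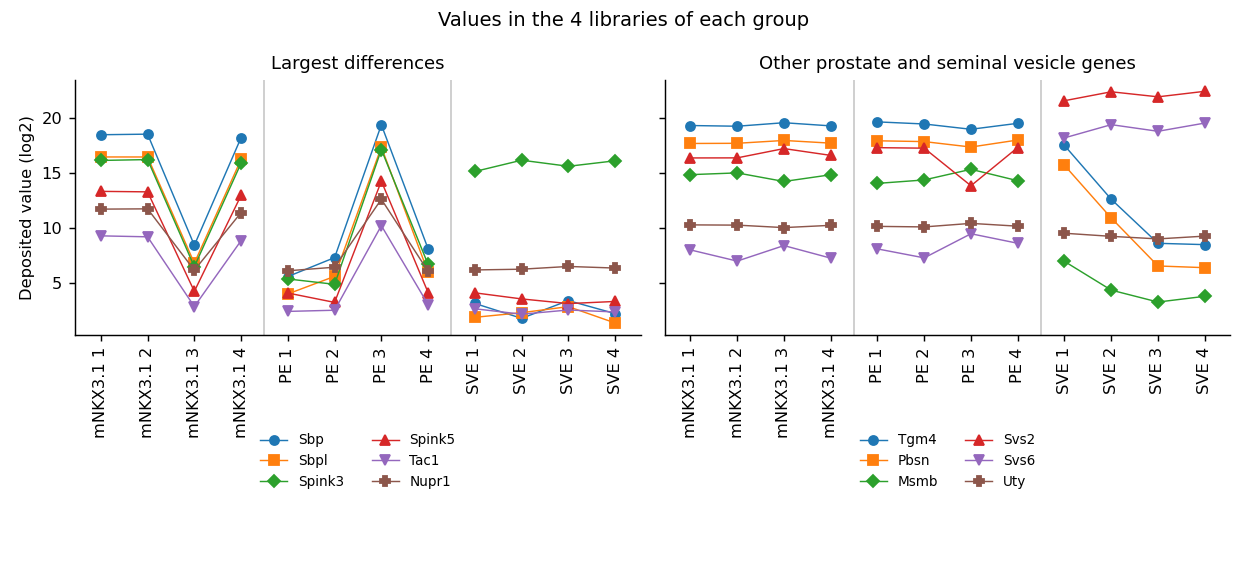
Deposited log2 values in each library of mNKX3.1, PE and SVE. Left, 6 of the largest differences, high in mNKX3.1 replicates 1, 2 and 4 and in PE 3 and low in the other prostate-type libraries. Right, Tgm4, Pbsn and Uty, close in all 8, with Svs2 lowest in PE 3 and Msmb and Svs6 highest in PE 3.

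Promoter windows of 3 of these genes are shown because they are members that moved together or, for Svs2, opposite in PE 3. Each runs 5′ to 3′ from 250 bases before to 50 bases after the RefSeq start, in build GRCm38.p6, which is not the build named for the deposited values. They were searched on both strands for AGAACA, an androgen response element half-site, TAAGTA, the core of the known NKX3.1 motif, and TGTTTAC, a forkhead core. Capitals mark a match.
Sbpl, chr17:23955224-23955523, minus strand: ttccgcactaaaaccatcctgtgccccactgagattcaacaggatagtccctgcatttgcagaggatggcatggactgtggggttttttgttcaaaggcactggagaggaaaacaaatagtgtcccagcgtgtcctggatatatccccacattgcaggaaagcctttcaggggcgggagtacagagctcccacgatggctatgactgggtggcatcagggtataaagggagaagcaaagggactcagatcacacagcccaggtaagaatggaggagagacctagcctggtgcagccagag
Nupr1, chr7:126625421-126625720, minus strand: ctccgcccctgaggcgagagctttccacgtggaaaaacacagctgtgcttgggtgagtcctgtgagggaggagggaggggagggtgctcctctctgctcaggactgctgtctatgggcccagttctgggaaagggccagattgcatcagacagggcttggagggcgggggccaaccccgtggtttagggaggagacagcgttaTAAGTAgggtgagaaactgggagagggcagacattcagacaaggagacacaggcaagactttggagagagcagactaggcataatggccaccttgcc
Svs2, chr2:164238292-164238591, minus strand: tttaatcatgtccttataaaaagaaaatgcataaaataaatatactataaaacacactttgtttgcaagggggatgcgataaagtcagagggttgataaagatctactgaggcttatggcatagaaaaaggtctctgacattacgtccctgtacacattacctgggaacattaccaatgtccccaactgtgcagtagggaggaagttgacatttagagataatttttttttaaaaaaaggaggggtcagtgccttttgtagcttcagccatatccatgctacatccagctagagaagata
Only Nupr1 held a match, a TAAGTA that begins 47 bases before the start. Of the 114 genes high in PE 3 alone, 85 matched the RefSeq table with 108 promoters, of which 14.8% held AGAACA, 5.56% TAAGTA and 2.78% TGTTTAC. Among all 32851 promoters of that table the shares were 18.97%, 7.59% and 3.65%. A match is a description of letters and not of binding.

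The variation within groups followed a few patterns. In PE, 425 genes had an SD above 1, and 164 of them did so in mNKX3.1 too. No gene had such an SD in mNKX3.1 and not in PE. The most frequent pattern, 207 genes, was high in PE 2 and PE 4. These genes had a median level of 5.48, 7.47, 7.26 and 7.74 in mNKX3.1 and of 5.23, 8.35, 5.65 and 7.60 in PE. The genes with the widest range in it, named after their values were seen, included Slc13a3, a dicarboxylate transporter, Marco, a scavenger receptor of macrophages, Itgal, an integrin of leukocytes, Emr1, the macrophage antigen F4/80, and Fpr1, a receptor for formyl peptides on phagocytes. Marco had 4.60, 8.67, 8.31 and 8.92 in mNKX3.1 and 2.63, 9.65, 5.45 and 8.71 in PE, low in mNKX3.1 1 and in PE 1 and PE 3.

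Of 10 listed leukocyte markers, 6 passed the filter on low values, and 4 of these were in this pattern. All 6 had positive differences, with a median of 0.15 that was -0.09 with 1 positive when PE 3 was left out, and 0 passed the test. Itgam, the alpha chain of the myeloid integrin CD11b, had 7.63, 10.41, 10.10 and 10.58 in mNKX3.1 and 7.12, 11.32, 7.92 and 10.38 in PE, against 8.43 to 8.72 in SVE. The T cell and B cell markers Cd3e, Cd3g, Cd79a and Ms4a1 were below 5 in every mNKX3.1 and PE library. Other genes of the B cell lineage, Cd79b, Pou2af1 and Igj, were in the pattern high in PE 2 and PE 4. The median level of the 6 markers was 7.45 to 9.59 in mNKX3.1 and 7.06 to 10.01 in PE, and its part in any difference was not tested.

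Another pattern, of 79 genes, was lowest in PE 3. It held nerve-type genes such as Tubb3, a neuronal tubulin, Nefl, a neurofilament subunit, and Vip, a neuropeptide, together with the seminal vesicle products Svs2 and Pate4. Tubb3 had 7.02, 6.85, 8.01 and 7.06 in mNKX3.1 and 7.87, 7.77, 4.84 and 7.63 in PE. A smaller pattern of 14 genes, high in PE 1 and PE 4 and in mNKX3.1 1 and mNKX3.1 3, held Upk3b, a uroplakin-family gene also known in mesothelium, and Msln, mesothelin. Upk3b had 6.18, 3.73, 6.39 and 4.39 in mNKX3.1 and 7.04, 4.50, 3.30 and 5.94 in PE, so each group had high and low libraries.

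**Figure D5:**
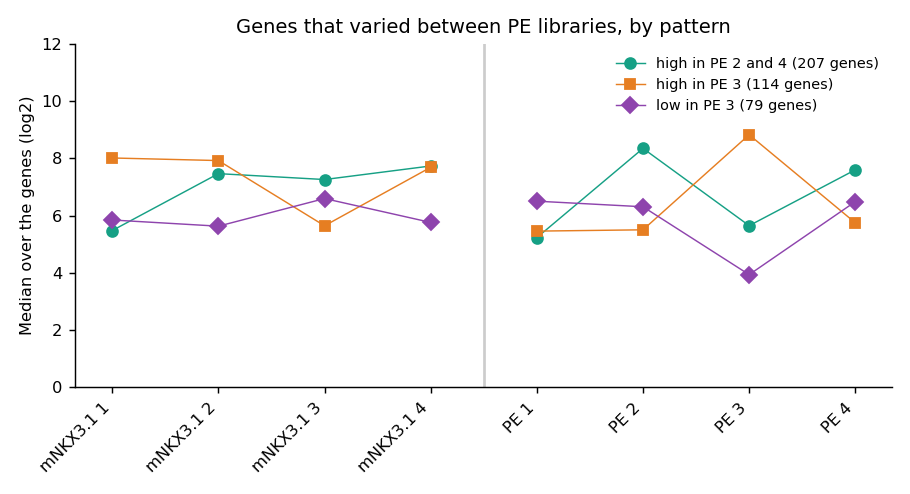
Median log2 level over the genes of each of the 3 most frequent patterns in the 4 mNKX3.1 and 4 PE libraries. PE 3 has the highest median of the 8 libraries for the 114 genes and the lowest for the 79 genes, and the mNKX3.1 libraries lie within the PE range except replicate 3 for the 79 genes, at 6.60 against a PE maximum of 6.51.

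Most seminal vesicle products were lower on average in the mNKX3.1 grafts, which began as seminal vesicle epithelium, than in PE, and whether any passed the test depended on the library weights. Of 14 measured members of the list, 0 passed the test, 1 (Spink3) had an unadjusted p below 0.05, and 11 had a negative difference, with a median of -0.44. That median was -0.75 without PE 2, -0.66 without mNKX3.1 3 and -0.29 without PE 3. Of the 14, 3 had a positive difference, where 44.2% of all genes tested did. Without PE 3, 1 of the 14 did, where 43.4% of all genes did. With limma's library weights 8 of the 14 passed, where 6.32% of all genes did: Svs3a, Svs3b, Svs4, Svs6, Ceacam10, Spinkl and Dnase2b were lower by 0.85 to 1.13 log2 and Spink3 was higher. In PE against SVE all 14 were lower by the test, and in mNKX3.1 against SVE 13 were, the exception being Spink3. Svs2, a component of the copulatory plug, had 16.38, 16.38, 17.23 and 16.61 in mNKX3.1 and 17.31, 17.26, 13.86 and 17.32 in PE, against 21.57 to 22.42 in SVE. On the linear scale that was 1.88% to 3.39% of the SVE mean in mNKX3.1 and 0.328% to 3.63% in PE. The groups overlapped, and PE 3 was the lowest library.

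Traces of 8 such products departed from the weighted sums. Among 12715 tested genes with a mean of at least 5 over the 8 libraries, 12463 lay within 0.5 log2 of their sum in all 4 mNKX3.1 libraries. Of the 12715, 8 departed by more than 0.5 in at least 3 libraries: Svs1, Svs3a, Svs3b, Svs6, Sva, Ceacam10, Spinkl and Dnase2b. They were singled out after their values were seen, and all 8 are on the seminal vesicle list. Genes with lower means, nearer the floor, were not counted. There the sums come out too high, because the full offset was added back when they were returned to log2. Only some of these low genes were looked up singly, and among those H19, Gimap7 and Camkv also departed by more than 0.5 in at least 3 libraries. The rest were not searched. For the 8 products the values minus the sum were -0.64 to -1.03 in mNKX3.1 1, -1.26 to -1.90 in mNKX3.1 2 and -0.96 to -1.37 in mNKX3.1 4, against 0.10 to 0.54 in mNKX3.1 3.

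Svs6 had 8.04, 7.03, 8.44 and 7.30 in mNKX3.1 and 8.13, 7.32, 9.51 and 8.65 in PE, against 18.20 to 19.54 in SVE. Its difference was -0.70 (SE 0.40, limma adjusted p = 0.9999), and the groups overlapped. Svs3a had 7.73, 6.85, 7.94 and 6.95 in mNKX3.1 and 7.89, 6.90, 8.93 and 8.25 in PE, against 17.77 to 18.63 in SVE, and reads may be divided uncertainly between it and its close copy Svs3b. The median share of the SVE mean over the 8 genes was 0.0577%, 0.0312%, 0.0724% and 0.0325% in mNKX3.1 1 to 4, and 0.0564%, 0.0275%, 0.142% and 0.0893% in PE 1 to 4. The genes differed within a library, between 0.0307% and 0.0798% in mNKX3.1 1 and between 0.0304% and 0.0950% in PE 1. The median was lowest in mNKX3.1 2, mNKX3.1 4 and PE 2 and highest in PE 3. The origin of these traces was not tested.

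A few single genes differed between libraries in other ways, and 0 of them passed the test, although with library weights Htr4, Cox6b2 and Lrrk2 did. H19, an imprinted non-coding RNA, had 3.55, 3.96, 3.85 and 3.41 in mNKX3.1 and 5.79, 5.77, 3.64 and 3.61 in PE, against 5.84 to 6.88 in SVE. It was high in PE 1 and PE 2 only, and lay 0.86 to 1.74 below the weighted sums in all 4 mNKX3.1 libraries. These values are near the floor, where the sums come out slightly too high. Htr4, a serotonin receptor, had the smallest unadjusted p of all, 8.77e-04 in limma (adjusted p = 0.9999), with 3.31, 2.89, 3.18 and 2.82 in mNKX3.1 and 2.40, 2.54, 1.95 and 2.56 in PE, against 6.33 to 6.89 in SVE. The mNKX3.1 and PE libraries did not overlap, and both groups were close to the floor, where single values are uncertain. Cox6b2, a cytochrome c oxidase subunit best known from testis, had 4.05, 3.87, 4.61 and 4.53 in mNKX3.1 and 4.78, 4.65, 5.06 and 4.95 in PE, and its difference of -0.60 (SE 0.18) came with a limma adjusted p of 0.9999. Lrrk2, a kinase, had 6.21, 5.98, 6.27 and 6.07 in mNKX3.1 and 6.68, 6.50, 6.17 and 6.61 in PE, against 10.29 to 10.72 in SVE, with an overlap through PE 3.

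Several lists leaned one way with small medians, and 0 of their members passed the test. With library weights the interferon genes Irf7, Ifit1, Mx2 and Rsad2 passed, where 6.32% of all genes did. They were higher in mNKX3.1 by 0.81 to 0.91. Of 16 interferon response genes 14 had positive differences, with a median of 0.12, and 15 did without PE 3, with a median of 0.21. The median was 0.18 without mNKX3.1 3, 0.07 without mNKX3.1 2 and 0.02 without PE 1. Ifit1, an interferon-induced antiviral gene, had 7.12, 6.79, 5.31 and 6.60 in mNKX3.1 and 4.90, 5.78, 7.56 and 5.73 in PE, high in the same libraries as Sbp. All 6 measured adipocyte genes had positive differences, between 0.17 and 0.31. Their median of 0.26 was 0.54 without PE 3, 0.42 without mNKX3.1 3 and 0.15 to 0.17 without any 1 of the other PE libraries. Adipoq, the adipocyte hormone adiponectin, had 7.73, 7.80, 7.05 and 7.72 in mNKX3.1 and 7.23, 6.93, 8.13 and 6.76 in PE, against 3.17 to 7.01 in SVE, again highest in PE 3.

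Epithelial, fibroblast and smooth muscle markers were close. Of 10 luminal epithelial genes 2 had positive differences, with a median of -0.03, and of 8 basal genes 4, with a median of 0.00. All 10 fibroblast and matrix genes had negative differences, the largest being -0.09 for Lum, a proteoglycan of connective tissue, and of 10 smooth muscle genes 9 were negative, with a median of -0.04. For every measured gene of these 4 lists the 95% interval lay within 1 log2 of 0. In PE against SVE all 10 smooth muscle genes were lower, and in mNKX3.1 against SVE all 10 were lower as well, so the smooth muscle difference from SVE was present in both. Skeletal muscle and urothelial genes were less closely bounded, with intervals within 1 log2 in 3 of 5 and in 2 of 4 measured genes, and 0 passed the test. Myh2, a myosin of fast skeletal muscle, had 5.31, 5.57, 4.45 and 5.22 in mNKX3.1 and 4.09, 3.39, 5.82 and 3.89 in PE, a difference of 0.84 (limma unadjusted p = 0.0400). With library weights Myh1 and Myh2 passed the test. Upk1a, a uroplakin, had 11.61, 11.62, 10.53 and 11.56 in mNKX3.1 and 10.42, 10.63, 12.24 and 10.34 in PE, a difference of 0.42. For both genes the groups overlapped, and PE 3 was the highest library.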

How the data were processed

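RNA of tissue recombinants was poly-A selected, prepared with the TruSeq kit and sequenced on an Illumina HiSeq, per the labels' protocols. Build mm9 and the tools Cufflinks 2.0.2, TopHat2 2.0.4, DESeq and bcl2fastq 1.8.4 are named, with no order, in the submitters' processing notes. The deposited log2 values are the authors' normalized expression per gene for 20 libraries; how they were made is not given in the sources used here. From 11 to 13 their antilogs, less an offset of 9.495, were whole multiples of 1 step per library in 100% of cases (tolerance 0.1 read). From 6 to 8 only 20.0% were whole, the share chance gives, so whole reads were recoverable for high values alone and no count test was run. Depth was estimated from that step. It limits low genes most, since values scatter around the floor with an SD of 0.475.

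Genes with a value of at least 5 in at least 4 libraries were fitted with limma 3.58.1 (R 4.3.3), with 5 group means, a trend of variance on expression, Benjamini-Hochberg adjustment over 13456 genes and a threshold of 0.05; the code was tested on simulated data. Distances were tested by exact permutation of 8 libraries (SciPy 1.17.1). Replicates are numbered in accession order only. Named genes are Uty, the 12 largest differences each way, the 8 smallest p each way and up to 3 members of each list, with all members of the secretory and regulator lists allowed. Others, such as those of the variation patterns, were chosen after their values were seen. A few genes picked by this rule are not reported here. The members and the gene lists were chosen with earlier results of these data known. Alternatives covered the libraries fitted, variance model, library weights, filter, scaling and each replicate left out; leaving out replicates for the counts of large or separate differences and for list medians was added after seeing the data.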

Additional observations from a re-analysis of the deposited data

Results flagged for a closer look

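Among 82 groups of 4 libraries checked, for 39 genes, the read totals and the share of the 50 most abundant genes in mNKX3.1 and PE, 20 had a library standing apart by Dixon's gap over range, where chance alone flags about 1 in 20. The genes checked include those named for the largest differences, many of which moved together, so the 2 rates are not comparable. Most of these single out mNKX3.1 3 or PE 3. In mNKX3.1 3 the values that stood lowest of the group were 8.46 for Sbp, 6.84 for Sbpl, 6.52 for Spink3, 4.29 for Spink5, 2.91 for Tac1, 6.20 for Nupr1, 7.05 for Adipoq and 10.07 for Uty, and Pbsn at 17.96 stood highest. In PE 3 the values that stood highest were 17.36 for Sbpl, 17.14 for Spink3, 14.28 for Spink5, 10.24 for Tac1 and 12.64 for Nupr1, while Svs2 at 13.86, Pate4 at 10.91 and Tubb3 at 4.84 stood lowest. In mNKX3.1 1 Itgam at 7.63 and Ms4a1 at 3.06 stood lowest, and in PE 1 Cd3e at 3.39 stood highest, the last 2 genes being near the floor in all libraries.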

How the results depend on the processing

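Under 16 alternatives to the fit of mNKX3.1 against PE, the count of 0 called genes held under all but library weights, which gave 850 called genes and 3343 at an unadjusted p below 0.05. That unadjusted count, 65 in the report, was 444 with no filter, 32 with a minimum value of 7, 99 after quantile normalization, and 39 to 788 with 1 replicate left out. The interval count was 19569 genes of the larger number tested with no filter. With 1 replicate left out, the between-minus-within distance was -0.0692 to 0.0452, the highest without PE 3, and the distance within mNKX3.1 minus that within PE was -0.257 to -0.0400, with exact permutation p = 0.0286 without PE 2 or without PE 4. The share of the PE to SVE difference was 100.8% for differences of at least 5 log2 and 98.6% to 100.4% with 1 replicate left out. The median residual of the sums was 0.760 times the counting variance for values of 9 or more and 1.19 with PE 1 to 3 as sources, the last chosen after seeing the data. Causes were not tested. Of 2317 alternative values of 147 genes named by the rule, 132 lay on the other side of 0 and 46 were called, all with library weights. No paired analysis was possible because the replicates carry no shared numbers in the labels. Depth limits low genes most: values near the floor scatter with an SD of 0.475.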
